A study of Schizosaccharomyces pombe with 6 samples.

Results

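The 8 genes described here build, remodel or cut the cell wall of fission yeast (Schizosaccharomyces pombe). They are psu1 and ecm33, which encode proteins of the cell surface, eng1 and agn1, which encode the glucanases that open the septum, exg1, which encodes another glucanase, and adg1, adg2 and adg3. They were picked by name with their Rad52 signal in both strains already known, so the levels below are a description. A gene value is the mean log2 ratio of Rad52 immunoprecipitate over input, relative to the array median, over the probes centred inside the annotated gene or within 500 bp of it. Of the 8 genes, 5 (psu1, ecm33, eng1, exg1 and adg3) could be placed on the arrays, among 4302 protein-coding genes measured in all. The genes adg1, adg2 and agn1 lie in the part of chromosome I where array and reference positions are 6149 to 6150 bp apart, and they were not analysed here.

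Rad52, a mediator of homologous recombination, was followed by ChIP on 6 arrays with 2 colours, 3 for each of 2 strains. Both strains carried cdc25-22, a temperature-sensitive allele that holds cells before mitosis, and the second also lacked rad3, which encodes the ATR-like checkpoint kinase. Both cultures were arrested at 36.5 °C (4 h), then returned to 25 °C and treated with hydroxyurea at 6 mM, which depletes nucleotides. The time in hydroxyurea and the origin of the replicates are not given in the sources used here, so p-values measure the spread between these arrays, which may be technical. All arrays carried a Rad52 immunoprecipitate in the green channel against input in the red, with no control immunoprecipitate and no exchange of dyes, so whether a level is specific to Rad52 was not tested. In a bulk immunoprecipitate, more cells with Rad52 at a site and more Rad52 per cell cannot be told apart.

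The labels and the signal at rad3 disagreed for 4 of the 6 arrays. Of 33 rad3 probes, 9, 10 and 9 were dim in both channels on the files that GEO lists under replicate 1 of cdc25-22, replicate 2 of cdc25-22 and replicate 3 of rad3-deleted, and 0 on each of the other files. The deposited value table pairs the files of replicates 1 and 2 with the opposite strain, and all values below follow that pairing. An array is therefore called matched to cdc25-22 or matched to rad3-deleted. This choice was made with the signal known. With the files as listed, 0 genes are called and most of the differences below, but not all, change sign. For cdc25-22 replicate 3 neither match exists: its file is absent from the table's columns and was left as listed, and its column is absent from the files. That column correlated most with the file of rad3-deleted replicate 3 (r = 0.5146 over all probes) and is given separately. Median signals were 580.0 to 1211.0 for the immunoprecipitate and 560.5 to 845.0 for input, against backgrounds of 38.0 to 71.5, so signal over background and the number of arrays limit the precision. Over genes, the arrays matched to rad3-deleted correlated with each other at 0.78 to 0.88 and those matched to cdc25-22 at 0.41 to 0.59. Both arrays of replicate 3 were extracted with a ChIP protocol, and those of replicates 1 and 2 with a CGH protocol. Outlier-flagged spots numbered 2137 on cdc25-22 replicate 3 and 6 to 523 on the other arrays. Differences between replicate 3 and the others therefore cannot be told apart from this change of protocol.

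The fission yeast wall is made of alpha- and beta-glucans and mannoproteins. At division a primary septum of beta-glucan is laid down behind the actomyosin ring, secondary septa form on both sides, and the daughters part when glucanases dissolve the primary septum and the wall around it. Rad52 acts on single-stranded DNA in recombinational repair, and Rad3 responds to such DNA when forks stall.

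Promoters are shown because the Rad52 signal differed strongly at and before the annotated start of ecm33 and exg1; those of eng1 and psu1 stand beside them for comparison. The 300 bases before the start of eng1, exg1, ecm33 and psu1 are given in lower case, with no part marked. Sequences are the RefSeq assembly ASM294v3, written 5′ to 3′ on the strand of the gene. They span chrI:998332-998631 (plus strand) for eng1, chrII:3514304-3514603 (plus strand) for exg1, chrI:1571590-1571889 (minus strand) for ecm33 and chrI:1823431-1823730 (minus strand) for psu1.
eng1: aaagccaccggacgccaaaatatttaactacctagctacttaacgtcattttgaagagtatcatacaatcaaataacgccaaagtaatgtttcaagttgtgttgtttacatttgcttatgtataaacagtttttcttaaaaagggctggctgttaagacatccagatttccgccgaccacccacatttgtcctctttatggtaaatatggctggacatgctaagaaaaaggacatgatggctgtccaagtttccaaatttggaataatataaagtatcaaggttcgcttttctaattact
exg1: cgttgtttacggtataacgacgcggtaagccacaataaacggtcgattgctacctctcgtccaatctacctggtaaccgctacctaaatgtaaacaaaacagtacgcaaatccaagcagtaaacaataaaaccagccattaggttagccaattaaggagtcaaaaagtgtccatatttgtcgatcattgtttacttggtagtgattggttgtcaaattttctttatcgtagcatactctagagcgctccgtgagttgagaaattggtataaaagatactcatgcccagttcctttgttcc
ecm33: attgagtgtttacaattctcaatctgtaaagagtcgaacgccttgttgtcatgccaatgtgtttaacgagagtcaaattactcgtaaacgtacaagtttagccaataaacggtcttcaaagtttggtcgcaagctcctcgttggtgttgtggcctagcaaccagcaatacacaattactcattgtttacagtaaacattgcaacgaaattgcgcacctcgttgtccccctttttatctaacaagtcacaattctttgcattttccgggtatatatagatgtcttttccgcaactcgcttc
psu1: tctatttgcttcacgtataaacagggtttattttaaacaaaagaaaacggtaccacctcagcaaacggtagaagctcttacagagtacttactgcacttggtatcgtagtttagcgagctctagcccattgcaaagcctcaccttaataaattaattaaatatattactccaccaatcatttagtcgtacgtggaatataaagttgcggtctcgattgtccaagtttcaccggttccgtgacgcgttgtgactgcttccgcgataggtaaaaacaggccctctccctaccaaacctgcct
The A+T content of these stretches was 64.0% at eng1, 59.7% at exg1, 59.7% at ecm33 and 57.7% at psu1.

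The surface protein gene psu1 had about the same Rad52 signal in both strains. It encodes a glucosidase of the wall (SPAC1002.13C, chromosome I, 1821401 to 1823430, minus strand) and was covered by 10 probes, 6 of them inside the gene. The arrays matched to cdc25-22 gave log2 ratios of 0.55, 0.65 and 0.51 in replicates 1, 2 and 3, a mean of 0.57 ± 0.07 (SD, n = 3). The arrays matched to rad3-deleted gave 0.62, 0.30 and 0.64, a mean of 0.52 ± 0.19 (SD, n = 3). Replicate 2 of the rad3-deleted arrays was the lowest of the 6, and the ranges of the strains overlapped. On that array 2 of the 10 probes were dim in both channels, and 0 on each other array. Of all its input spots 84.9% were well above background, against 96.5% to 99.8% on the other arrays. In cdc25-22, 0.581% of all genes had a higher mean than psu1, and in rad3-deleted 9.27% did. The log2 input signal at psu1, relative to each array's median, was -0.48, -0.77 and -0.43 in cdc25-22 and -0.56, -1.03 and -0.65 in rad3-deleted. The log2 immunoprecipitate signal was 0.05, -0.13 and 0.05 and then 0.03, -0.71 and -0.08. The high ratio thus went with low input, while the immunoprecipitate was near or below the array median. Why input was low there was not tested. The spread of gene values itself differed between the strains, with a 95th percentile of 0.27 in cdc25-22 and 0.70 in rad3-deleted. The difference, rad3-deleted minus cdc25-22, was -0.05 (SE 0.11, limma adjusted p = 0.763, 95% interval -0.29 to 0.19). When the arrays were brought to a common spread, psu1 was lower without rad3, at -0.43 with a common median absolute deviation (MAD, adjusted p = 0.0318) and -0.48 with quantile normalization (adjusted p = 0.0101).

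**Figure D1:**
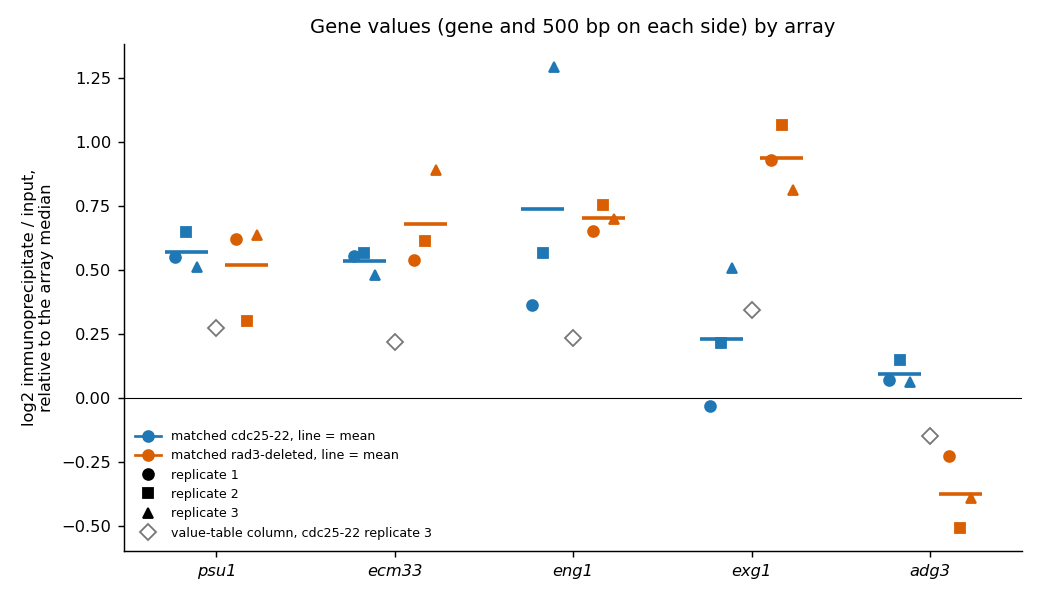
Rad52 log2 ratio of immunoprecipitate over input (vertical axis, relative to the array median) for the 5 placed genes (horizontal axis); points are single arrays, shapes are replicates, lines are strain means and open diamonds are the value-table column for cdc25-22 replicate 3. The strains overlap at psu1, ecm33 and eng1, all 3 rad3-deleted arrays lie above the cdc25-22 arrays at exg1 and all 3 lie below at adg3.

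Along psu1 the signal covered the gene and little else. All 6 probes inside the gene had a strain mean above 0 in both strains. The highest mean of the cdc25-22 arrays was at the probe 2192 bp from the annotated start, past the end of the gene, at 1.09 ± 0.09 (SD, n = 3), and the lowest at -496 bp, at -0.47 ± 0.15. In the rad3-deleted arrays the highest means were 0.82 ± 0.04 at 650 bp and 0.82 ± 0.54 at 115 bp. The lowest was -0.23 ± 0.61 at 2435 bp. At the next probe outward, at -722 bp, the strain means were -0.67 and -0.76. Of the 10 probes, 1 was higher on all rad3-deleted arrays than on all cdc25-22 arrays and 0 were lower, where 14.4% of single probes were all above and 10.2% all below over the genome.

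The surface protein gene ecm33 was also high in both strains, but the balance between its start side and its end side differed. It encodes an extracellular leucine-rich repeat protein of the wall (SPAC1705.03C, chromosome I, 1569613 to 1571589, minus strand) and was covered by 12 probes, 7 of them inside the gene. In cdc25-22 its log2 ratios were 0.56, 0.57 and 0.48, a mean of 0.53 ± 0.05 (SD, n = 3). In rad3-deleted they were 0.54, 0.61 and 0.89, a mean of 0.68 ± 0.19 (SD, n = 3). Replicate 3 of the rad3-deleted arrays was the highest of the 6, and replicate 1 lay within the range of cdc25-22. Of all genes, 0.860% were higher in cdc25-22 and 5.37% in rad3-deleted. The difference was 0.15 (SE 0.11, limma adjusted p = 0.327, 95% interval -0.09 to 0.38), and -0.02, 0.05 and 0.41 on the 3 slides. Quantile normalization turned it to -0.34 (adjusted p = 0.0247) and a common MAD to -0.28 (adjusted p = 0.107).

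Within ecm33 the side nearer the start was the higher in rad3-deleted arrays and the side nearer the end in cdc25-22 arrays. The window was divided at the middle of the gene. In cdc25-22 the start side was at 0.44, 0.29 and 0.27 and the end side at 0.64, 0.77 and 0.63 in replicates 1, 2 and 3. In rad3-deleted the start side was at 0.75, 0.98 and 1.32 and the end side at 0.39, 0.35 and 0.59. The start side was thus the lower on 3 of 3 arrays of cdc25-22 and the higher on 3 of 3 of rad3-deleted. The value-table column for cdc25-22 replicate 3 did not keep this order, and its start side had the higher mean. Its probes were at 0.15 to 0.55 on the start side and -0.59 to 0.71 on the end side. Start side minus end side averaged -0.35 in cdc25-22 and 0.57 in rad3-deleted, where the median over 4288 genes was -0.12 and -0.04. Of those genes, 2.68% exceeded ecm33 in rad3-deleted and 85.2% in cdc25-22. At single probes, the highest mean of cdc25-22 was 0.98 ± 0.16 (SD, n = 3) at 2016 bp from the start and that of rad3-deleted 1.26 ± 0.54 at -46 bp. At 2016 bp the rad3-deleted mean was 0.82 ± 0.19, and the strains overlapped. The lowest means were -0.17 ± 0.29 in cdc25-22 and -0.06 ± 0.24 in rad3-deleted, both at 2416 bp. All 7 probes inside the gene had a mean above 0 in both strains (0.38 to 0.96 in cdc25-22 and 0.40 to 1.25 in rad3-deleted). In all, 3 of the 12 probes were higher without rad3 with no overlap and 1 was lower. Over the genome 14.4% of single probes were higher and 10.2% lower in this way. The outermost probe of the window before the start, at -469 bp, had strain means of -0.02 and 0.78, and the next one out, at -640 bp, -0.06 and 1.31.

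**Figure D2:**
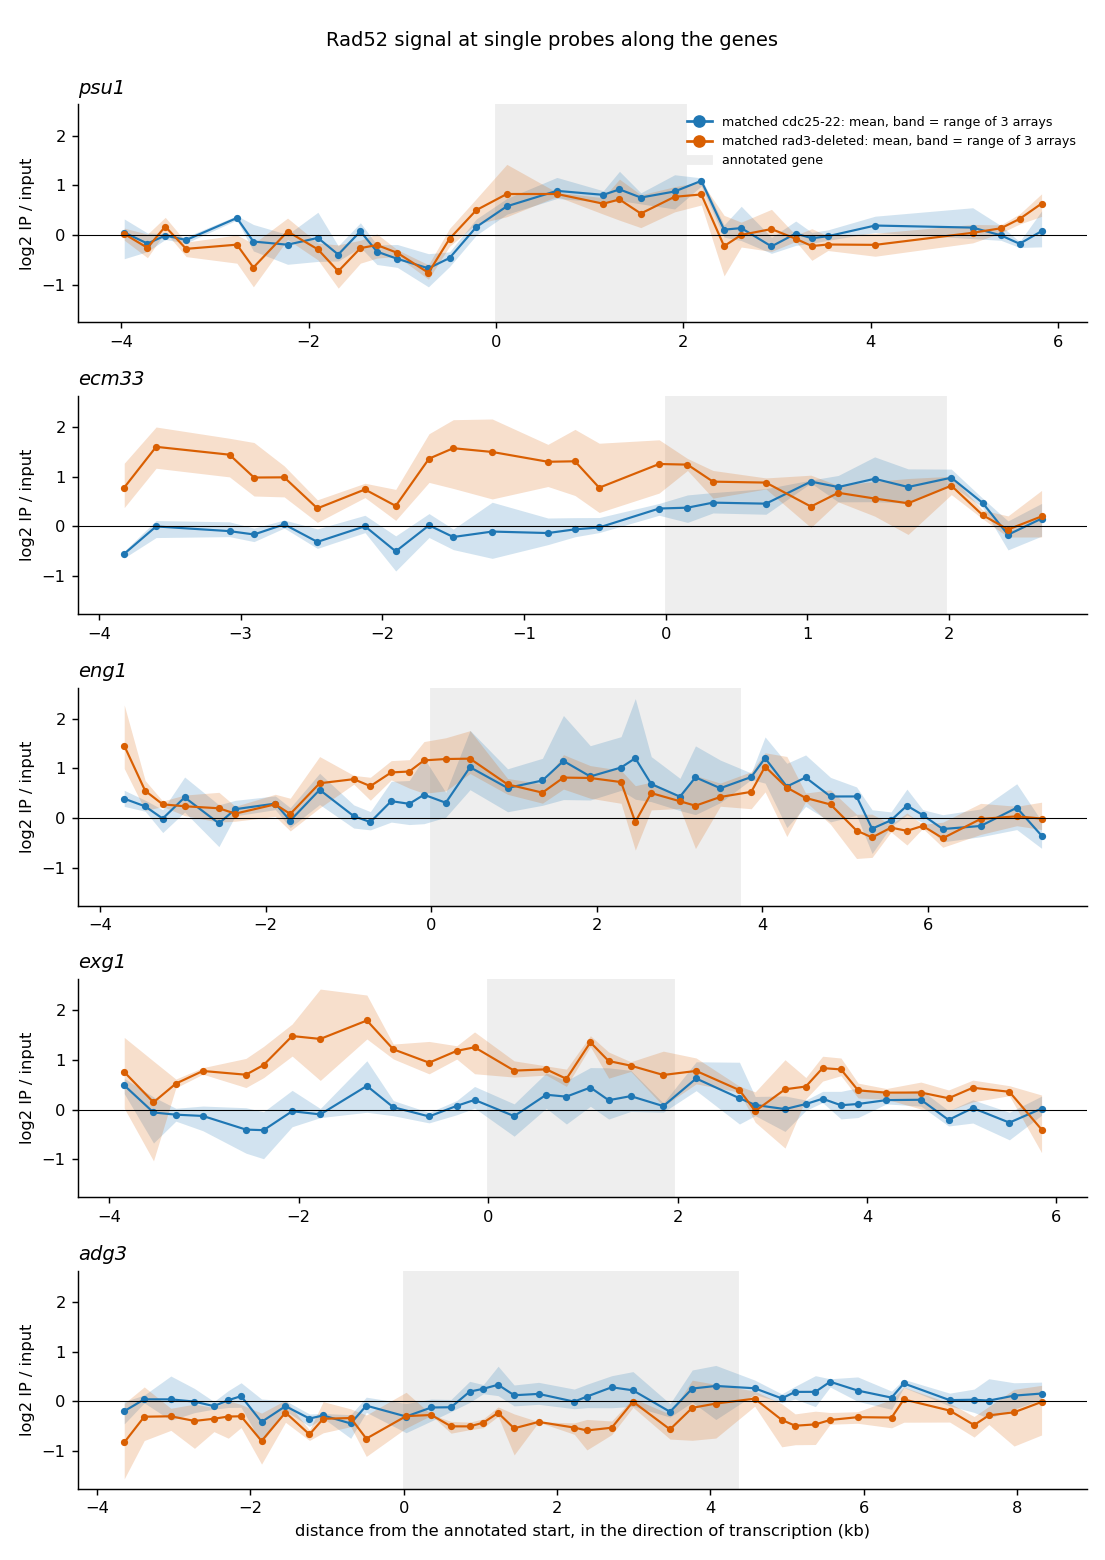
Rad52 log2 ratio at single probes (vertical axis) by distance from the annotated start in the direction of transcription (horizontal axis, kb) for the 5 placed genes; lines are means of 3 arrays, bands their range and grey the annotated gene. In the rad3-deleted arrays the signal extends before the start of ecm33 and exg1, while at psu1 the strains follow each other and at adg3 the rad3-deleted arrays lie below.

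The septum glucanase gene eng1 was near the top of all genes in cdc25-22, with a large share from 1 array. Eng1 is the endo-beta-glucanase that dissolves the primary septum (SPAC821.09, chromosome I, 998632 to 1002361, plus strand), and 17 probes covered its gene, 12 of them inside. Across the cdc25-22 arrays the values were 0.36, 0.57 and 1.29, a mean of 0.74 ± 0.49 (SD, n = 3). Across the rad3-deleted arrays they were 0.65, 0.76 and 0.70, a mean of 0.70 ± 0.05 (SD, n = 3). Replicate 3 of cdc25-22 lay above all other arrays, and the other 2 cdc25-22 arrays lay below all rad3-deleted arrays. The value-table column for that sample was at 0.23, and 13.2% of genes were higher there. Of all genes, 0.116% were higher than eng1 in cdc25-22 and 5.0% in rad3-deleted. The difference was -0.04 (SE 0.18, limma adjusted p = 0.899, 95% interval -0.43 to 0.36). It was 0.24 without cdc25-22 replicate 3 (adjusted p = 0.147) and 0.32 in the value table (adjusted p = 0.0783). It was also above 0 without dim probes (0.041), with normexp background correction (0.047) and with the A+T trend removed (0.062), so its sign was not settled.

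As at ecm33, eng1 was higher on its start side in the rad3-deleted arrays. Start side minus end side averaged 0.42 in rad3-deleted, with 5.53% of genes above, and -0.23 in cdc25-22, with 70.4% above. The start side was at 0.66, 1.13 and 0.99 in rad3-deleted and the end side at 0.64, 0.43 and 0.44. In cdc25-22 the start side was at 0.18, 0.51 and 1.16 and the end side at 0.52, 0.61 and 1.41. The end side was thus the higher on 3 of 3 arrays of cdc25-22 and the start side on 3 of 3 of rad3-deleted, though in replicate 1 of rad3-deleted the sides were nearly level. The highest probe mean of rad3-deleted was 1.2 ± 0.49 (SD, n = 3) at 469 bp from the start and the lowest -0.08 ± 0.66 at 2466 bp. In cdc25-22 the highest means were 1.21 ± 1.07 at 2466 bp and 1.21 ± 0.47 at 4034 bp, and the lowest was 0.29 ± 0.45 at -265 bp. Of 17 probes, 2 were higher without rad3 with no overlap, where 14.4% of probes were over the genome, and 0 lower. An annotated antisense RNA, SPNCRNA.2441, covers most of eng1 (998685 to 1001844), and sod1, which encodes a superoxide dismutase, lies within 500 bp of its end. The arrays do not separate strands, so the signal belongs to both.

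The glucanase gene exg1 was higher without rad3. Exg1 is a secreted glucosidase that acts on beta-glucan of the wall (SPBC1105.05, chromosome II, 3514604 to 3516567, plus strand), and 10 probes covered its gene, 7 of them inside. The 3 cdc25-22 arrays read -0.03, 0.22 and 0.51, a mean of 0.23 ± 0.27 (SD, n = 3). The 3 rad3-deleted arrays read 0.93, 1.07 and 0.81, a mean of 0.94 ± 0.13 (SD, n = 3). All 3 rad3-deleted arrays lay above all 3 cdc25-22 arrays, as was so for 21.9% of the 4302 genes. The difference was 0.71 (SE 0.13, limma adjusted p = 0.00204, 95% interval 0.42 to 0.99), where 684 genes (15.9%) were called higher without rad3. Of all genes, 5.21% had a larger difference. On the 3 slides it was 0.96, 0.85 and 0.30. The call was kept without any 1 array (0.57 to 0.84) and was lost with a common MAD (0.44, adjusted p = 0.094) and with quantile normalization (0.36, adjusted p = 0.216). Since the genes were chosen with both strains' levels known, these p-values place them within the fit over all genes and are not independent evidence.

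The difference at exg1 lay in the immunoprecipitate channel. The log2 input signal, relative to each array's median, was 0.67, 0.95 and 0.44 in cdc25-22 and 0.64, 0.95 and 0.69 in rad3-deleted, with overlapping ranges. The log2 immunoprecipitate signal was 0.61, 1.16 and 0.91 in cdc25-22 and 1.54, 2.03 and 1.44 in rad3-deleted, with no overlap. The sides of exg1 had no common order in the rad3-deleted arrays, at 0.77, 1.09 and 0.94 on the start side and 1.09, 1.04 and 0.68 on the end side, with means of 0.93 and 0.94. The highest probe mean of rad3-deleted was 1.36 ± 0.12 (SD, n = 3) at 1079 bp from the start and the lowest 0.62 ± 0.18 at 826 bp. In cdc25-22 the highest was 0.63 ± 0.30 at 2196 bp and the lowest -0.13 ± 0.35 at 274 bp. Of 10 probes, 4 were higher without rad3 with no overlap and 0 lower, where 14.4% of single probes were higher and 10.2% lower over the genome. The higher signal was not confined to exg1. All probes from -3298 to -624 bp were higher with no overlap (differences 0.63 to 1.52, the largest at -1773 bp). Past the window, the probes at 2653, 2819 and 3134 bp overlapped (0.16, -0.12 and 0.40). Those at 3354, 3531 and 3725 bp were higher with no overlap (0.35 to 0.72). Farther out to 5843 bp, those at 4861 and 5503 bp were higher in this way and the rest overlapped.

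The gene adg3 went the other way and was lower without rad3. It encodes an annotated beta-glucosidase (SPCC18.01C, chromosome III, 1947837 to 1952199, minus strand), and 17 probes covered it, 15 of them inside. On cdc25-22 arrays adg3 stood at 0.07, 0.15 and 0.06, a mean of 0.09 ± 0.05 (SD, n = 3). On rad3-deleted arrays it stood at -0.23, -0.51 and -0.39, a mean of -0.37 ± 0.14 (SD, n = 3). All 3 rad3-deleted arrays lay below all 3 cdc25-22 arrays, as was so for 22.3% of genes. In cdc25-22, 22.8% of genes lay above adg3, and in rad3-deleted 93.8% did. The difference was -0.47 (SE 0.10, limma adjusted p = 0.00552, 95% interval -0.69 to -0.25), where 402 genes (9.34%) were called lower without rad3. With the replicate number as a block, 611 genes were called lower and the adg3 call stood. The difference was -0.30, -0.65 and -0.45 on the 3 slides, and 97.9% of genes had a higher one. The call was kept in 16 of 16 alternatives that use the matched arrays or the value table (-0.54 to -0.32, largest adjusted p = 0.0465). The count of genes called lower was less steady: without cdc25-22 replicate 1 or 2 it was 80 or 226, and without rad3-deleted replicate 1, 2 or 3 it was 691, 107 or 154.

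The lower signal spread over the body of adg3 and past its end into the neighbouring protein-coding gene mak3 (1940315 to 1947736). Of 17 probes, 10 were lower on all rad3-deleted arrays than on all cdc25-22 arrays and 0 were higher. Over the genome 10.2% of single probes were lower and 14.4% higher in this way. Beyond the window, the next 5 probes, from 4931 to 5922 bp from the start, were also lower with no overlap, with differences of -0.77 to -0.43. They lie in mak3, and differences stayed below 0 out to 8320 bp (-0.17). Before the start, the probes from -3644 to -1853 bp had differences of -0.63 to -0.25, each with overlapping strains. The lower signal was thus not confined to adg3. The mean over the arrays was above 0 at 11 of the 17 probes in cdc25-22 and at 1 in rad3-deleted. The highest probe mean of cdc25-22 was 0.33 ± 0.32 (SD, n = 3) at 1232 bp from the start and the lowest -0.31 ± 0.30 at 32 bp. In rad3-deleted the highest was 0.05 ± 0.15 at 4578 bp and the lowest -0.75 ± 0.43 at -487 bp. The value-table column for cdc25-22 replicate 3 gave adg3 -0.15, below the 3 cdc25-22 arrays and above the 3 rad3-deleted arrays.

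The order of the means was eng1 (0.74), psu1 (0.57), ecm33 (0.53), exg1 (0.23) and adg3 (0.09) in cdc25-22. The ranges of neighbours in this order overlapped throughout. In rad3-deleted it was exg1 (0.94), eng1 (0.70), ecm33 (0.68), psu1 (0.52) and adg3 (-0.37). Here eng1 lay below exg1 with no overlap of arrays, ecm33 overlapped exg1, eng1 and psu1, and adg3 lay below all the others. Different probes measure different genes, so this order is a description. Over all genes the median was -0.00 in cdc25-22 and -0.01 in rad3-deleted, with 5th percentiles of -0.20 and -0.40. The value-table column for cdc25-22 replicate 3 gave 0.27, 0.22, 0.23, 0.34 and -0.15 for psu1, ecm33, eng1, exg1 and adg3, with 10.4%, 14.4%, 13.2%, 6.48% and 76.5% of genes above.

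The region before ecm33 differed far more than the gene. The stretch beyond 500 bp and up to 2000 bp before the annotated start lies outside the windows that chose the genes. It was taken after the probe values had been seen, and was fitted with limma for 4282 genes. Before ecm33, 6 probes gave -0.27, -0.19 and -0.03 in cdc25-22, a mean of -0.16 ± 0.12 (SD, n = 3). They gave 0.63, 1.42 and 1.70 in rad3-deleted, a mean of 1.25 ± 0.55 (SD, n = 3). All rad3-deleted arrays lay above all cdc25-22 arrays, as was so for 24.6% of regions. The difference was 1.41 (SE 0.21, limma adjusted p = 0.000283, 95% interval 0.95 to 1.87), where 17.6% of regions were called higher without rad3, and 1.68% of regions had a larger one. The stretch holds 3 annotated long non-coding RNAs, SPNCRNA.2694, SPNCRNA.80 and SPNCRNA.745, and 0 protein-coding genes, and its A+T content is 70.1%. With the A+T trend removed from each array the difference was 0.98 (adjusted p = 0.000482), and it was 1.16 in the value table (adjusted p = 0.0392). The signal did not end there. At the probe at -3596 bp from the start, rad3-deleted arrays gave 1.17, 1.64 and 2.0 and cdc25-22 arrays 0.12, -0.22 and 0.11.

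The region before exg1 was higher without rad3 as well. Its 4 probes gave -0.10, 0.24 and 0.09 in cdc25-22, a mean of 0.07 ± 0.17 (SD, n = 3). They gave 1.17, 1.18 and 1.69 in rad3-deleted, a mean of 1.35 ± 0.30 (SD, n = 3). The strains did not overlap, as was so, upward, for 24.6% of regions. The difference was 1.27 (SE 0.16, limma adjusted p = 7.63e-05, 95% interval 0.93 to 1.62), and 2.52% of regions had a larger one. With the A+T trend removed it was 0.98 (adjusted p = 0.000147). This stretch, at 68.6% A+T, holds 2 long non-coding RNAs, SPNCRNA.421 and SPNCRNA.1609, and 0 protein-coding genes. At both ecm33 and exg1 the call was kept under every alternative tried with the matched arrays or the value table, with a difference of 0.98 to 1.72 at ecm33 and 0.79 to 1.45 at exg1. The value-table column for cdc25-22 replicate 3 was at 0.72 before ecm33 and 0.45 before exg1, above the 3 cdc25-22 arrays at both. Before ecm33 it also lay above replicate 1 of rad3-deleted, so with that column the strains overlap there.

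The regions before eng1, psu1 and adg3 did not pass the test. Before eng1 the arrays gave 0.11, 0.18 and 0.17 in cdc25-22 and 0.40, 0.75 and 0.35 in rad3-deleted, with no overlap and a difference of 0.34 (SE 0.14, limma adjusted p = 0.089, 95% interval 0.05 to 0.64). Before psu1 they gave -0.22, -0.37 and -0.34 and then -0.38, -0.50 and -0.43, a difference of -0.12 (adjusted p = 0.499, 95% interval -0.39 to 0.14). Before adg3 they gave -0.30, -0.29 and -0.37 and then -0.43, -0.53 and -0.47, a difference of -0.16 (adjusted p = 0.369, 95% interval -0.42 to 0.11). All 3 rad3-deleted arrays were the lower at psu1 and adg3, as at 16.6% of regions, and 5.14% of regions were called lower. The number of regions called lower rose from 220 to 378 with the replicate block. It was 53 or 109 without cdc25-22 replicate 1 or 2, and 387, 68 or 98 without rad3-deleted replicate 1, 2 or 3.

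**Figure D3:**
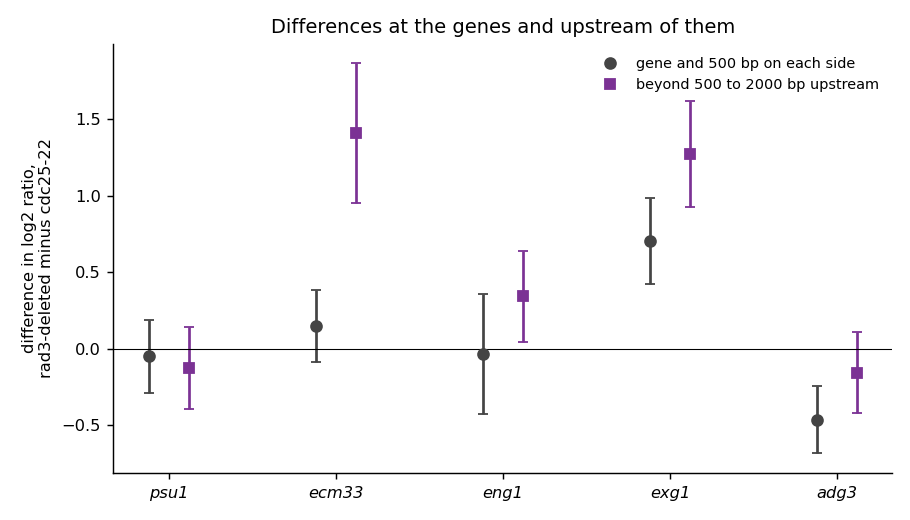
Difference in Rad52 log2 ratio, rad3-deleted minus cdc25-22 (vertical axis), for each placed gene (circles) and for the stretch beyond 500 and up to 2000 bp before its start (squares); bars are 95% intervals from limma. The interval lies above 0 at exg1 and at the regions before ecm33, eng1 and exg1, and below 0 at adg3; the region before eng1 did not pass after adjustment over all regions.

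By Euclidean distance over the 6 gene values, the genes most like psu1 were asl1, a gene of the wall (0.23), tef103, which encodes a translation elongation factor (0.27), pho4, an acid phosphatase gene (0.28), SPCC794.03 (0.29) and SPBC8D2.18C (0.30). Most like ecm33 were sec9, a gene of membrane fusion (0.21), gln1, which encodes glutamine synthetase (0.32), SPBP23A10.11C (0.32), qcr1, a respiratory chain gene (0.38), and pal1, a gene of cell shape (0.39). The strain means of these 5 ranged from 0.35 to 0.53 in cdc25-22 and from 0.55 to 0.84 in rad3-deleted. Those most like psu1 ranged from 0.51 to 0.62 and from 0.39 to 0.57.

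Other wall and septation genes were mostly not called, as was so over all genes, where 1086 of 4302 were called. Of 74 listed symbols, 68 matched the annotation and 54 were measured. Of these 54 genes, 2 were higher (3.7%, against 15.9% of all genes) and 8 lower (14.8%, against 9.34%), and 44 were not called. Their median difference was -0.13, where that of all genes was -0.03, and 13 of them (24.1%, against 22.3% of all genes) were lower and 5 (9.26%, against 21.9%) higher with no overlap between the strains. Which direction was called more often changed with the processing: the value table called 2 higher and 1 lower, and with the A+T trend removed 4 were higher and 3 lower. The lower count was 3 with probes inside the gene and 4 with a common MAD or quantile normalization. The counts also depended on single arrays: the lower count was 0 without cdc25-22 replicate 1, 5 without replicate 2, and 1 or 4 without rad3-deleted replicate 2 or 3. The higher count was 1 without cdc25-22 replicate 1 and 4 without rad3-deleted replicate 1, and with the replicate block it was 4. Each of the lists below is a description of these arrays. Their counts stand against 15.9% of all genes called higher and 9.34% called lower.

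Of 7 glucan synthase genes, which make the wall polymers, 1 was lower and 0 higher: mok12, an alpha-glucan synthase homologue, at 0.08, -0.09 and 0.04 in cdc25-22 and -0.36, -0.63 and -0.35 in rad3-deleted (difference -0.46, limma adjusted p = 0.00888). Of 4 glucanase and glucan transferase genes outside the 8, 0 were called, with differences of -0.25 to 0.16. Of 5 wall protein and assembly genes, 1 was lower, the wall protein gene pwp1 (-0.34, adjusted p = 0.0335). Of the 3 genes that control transcription of the septation genes, fkh2, which encodes a forkhead factor, was higher. It stood at -0.18, -0.11 and -0.04 in cdc25-22 and 0.21, 0.38 and 0.36 in rad3-deleted (difference 0.42, adjusted p = 0.00766; 0.0514 without cdc25-22 replicate 1). The gene of the forkhead factor Sep1 had a difference of 0.00 (adjusted p = 0.986) and did not pass.

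Of 16 septum and ring genes, 3 were lower (18.8%, against 9.34% of all genes) and 0 higher (against 15.9%). They were myo2, the myosin heavy chain of the ring (-0.42, limma adjusted p = 0.0381), cfh1, a gene related to chitin synthase regulation (-0.37, adjusted p = 0.0414), and fic1, a ring protein gene (-0.36, adjusted p = 0.0163). At cfh1 the strains overlapped. Differences in this list ranged from -0.42 to 0.36. With no overlap between the strains, 2 of its genes were higher (12.5%, against 21.9% of all genes) and 3 lower (18.8%, against 22.3%). Of 11 genes of the septation signal, the kinase cascade that starts septation, byr4 was higher and sid2 lower. The value of byr4, which encodes part of the inhibitor of the cascade, was -0.03, -0.04 and -0.19 in cdc25-22 and 0.40, 0.67 and 0.97 in rad3-deleted (difference 0.77, adjusted p = 0.00116), and its call was kept in 16 of 16 alternatives. The kinase gene sid2 had a difference of -0.38 (adjusted p = 0.0241). On chromosome I, cfh1 ends at 221549 and sid2 starts at 221694. Their windows overlap, so the calls of cfh1 and sid2 are not separate observations. Of 8 genes of the wall integrity signal, the kinase genes pck1 (-0.37, adjusted p = 0.0150) and mkh1 (-0.35, adjusted p = 0.0232) were lower and 0 were higher. Of the 8 genes called lower, mok12 kept its call in 13 of 16 alternatives, fic1 in 12, pck1 in 11, sid2 in 9, mkh1 in 8, cfh1 in 7, and pwp1 and myo2 in 6 each.

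**Figure D4:**
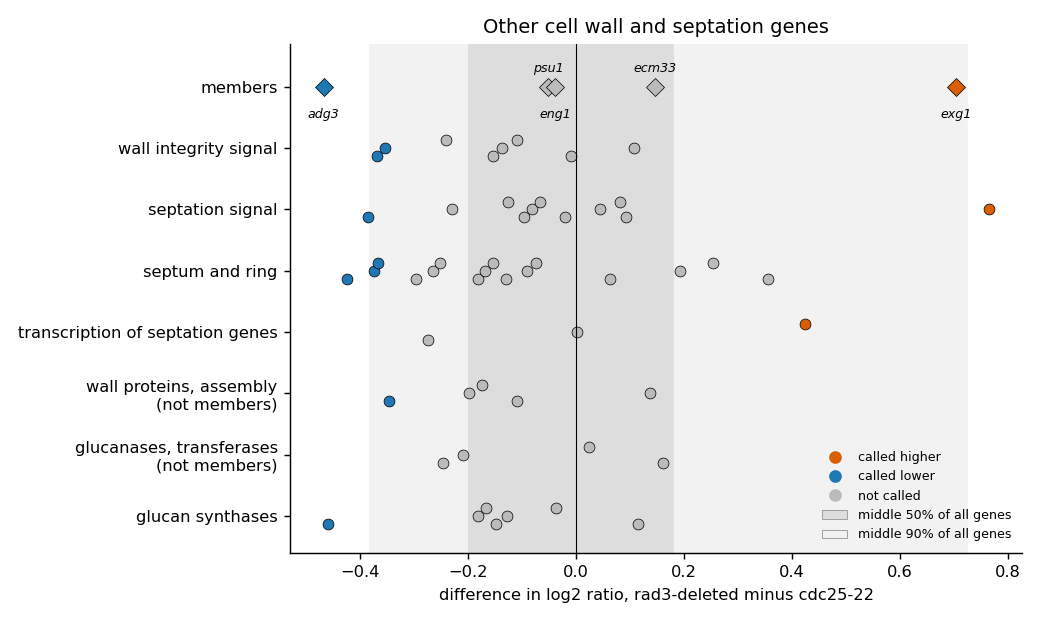
Difference in Rad52 log2 ratio, rad3-deleted minus cdc25-22 (horizontal axis), for the 5 placed genes (diamonds) and 54 other wall and septation genes by list (circles); colour marks genes called higher or lower, and shading the middle 50% and 90% of all 4302 genes. Of the circles, 2 are called higher and 8 lower, and exg1 and adg3 are the called diamonds.

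**Figure D5:**
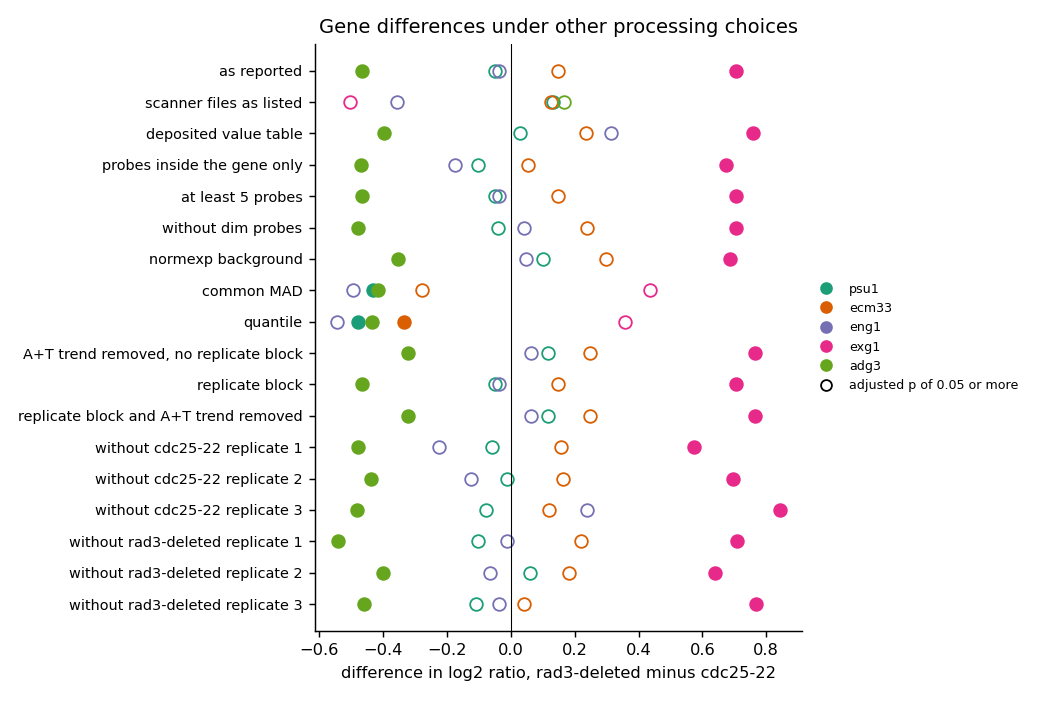
Difference in Rad52 log2 ratio, rad3-deleted minus cdc25-22 (horizontal axis), of the 5 placed genes under each processing choice (rows); filled points have an adjusted p under 0.05. The points of adg3 stay below 0 and those of exg1 above 0 except with the scanner files as listed, where they are at 0.17 and -0.50 and no gene is called.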

How the data were processed

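Rad52 immunoprecipitate and input were measured on 6 arrays of fission yeast; the labels give RNA as the molecule, while the fractions are named input and IP. Scanner files were made with Agilent Feature Extraction 10.7.3.1, per the submitters' processing notes. The processed signals are intensity values that had been background-subtracted and dye-corrected, with no lowess, per the file headers, and the deposited log ratio is red over green on a log10 scale. Values of the deposited series table are immunoprecipitate over input as a plain ratio, as comparison with the scanner files showed.

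Control and outlier-flagged spots were left out, log2 of green over red processed signal was taken, and the median of each array was set to 0. For 5 columns of the table a scanner file holds the same values at each of 42641 probes (tolerance 0.001 on the log2 scale), and files were placed by that match. Gene values needed at least 2 probes measured on all 6 arrays (40086 probes), and probes within 1000 bp of rad3 were left out. limma 3.58.1 (R 4.3.3) fitted rad3-deleted minus cdc25-22 over 4302 genes, with Benjamini-Hochberg adjustment and calls under 0.05; called means past that threshold. The fits were tested on simulated data. Of 100 genes changed by 0.5 on the log2 scale 66 were recovered, and of 100 upstream regions 33. With a change of 1.0, 97 and 85 were recovered. False calls numbered 4 among genes and 8 among regions. Differences near 0.5 or smaller can therefore be missed, more often in the upstream regions. Array positions follow an older genome version, per the file headers, and coincided with ASM294v3 within 3 bp in 214 of 251 segments of 50000 bp; beyond position 3750000 of chromosome I they did not, and the 748 genes there (of 5113) were not analysed. Position checks and figures used Python 3.11.15 with pandas 2.3.3, numpy 2.4.6, scipy 1.17.1 and matplotlib 3.10.9.

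Each of 3 slides holds an array of each strain under the same replicate number. Slide 3 alone was extracted with the ChIP protocol, so slide 3 and protocol cannot be told apart. Deviations from the strain means correlated at 0.29, 0.20 and 0.16 within slides, so the numbers pair the arrays; slide and replicate number are the same thing here. The replicate block is an alternative. Others were the files as listed, the value table, probes inside the gene, at least 5 probes, dim probes left out, normexp (offset 50, on median signals, since no mean signal was used), a common MAD, quantile normalization, removal of the A+T trend, and each array left out.

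Genes and lists were chosen with earlier results of these data known. Named were the 8 genes, up to 3 called genes a list and direction, overlapping neighbours, the 5 genes nearest psu1 and ecm33, rad3, and each gene's highest and lowest probe; sep1 was named after its value was seen. A planned promoter search is not reported here.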

Additional observations from a re-analysis of the deposited data

How the results depend on the processing

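No control immunoprecipitate, 3 arrays a strain and the choice of which files belong to which strain limit all values; depth in the sense of read counts does not apply. With the files as listed, limma called 0 of 4302 genes higher and 0 lower (41 at an unadjusted p under 0.05, and 8 with the replicate block, which also called 0 and 0), and 0 upstream regions in either direction. The differences then reversed, with and without the block, to 0.17 at adg3, -0.50 at exg1, 0.13 at psu1, 0.16 at fic1, -0.16 at fkh2, 0.20 at mok12, 0.058 at myo2, 0.12 at pck1, 0.16 at sid2, 0.025 at mkh1, 0.014 at cfh1 and 0.0031 at pwp1, and upstream to 0.090 at adg3, -0.26 at ecm33, -0.22 at eng1, -0.20 at exg1 and 0.068 at psu1. The sign was kept, with no call, at ecm33 (0.13), eng1 (-0.36) and byr4 (0.0056). Of 684 genes higher and 402 lower, the value table gave 423 and 126, probes inside the gene 443 and 211 (of 4125 genes), a common MAD 490 and 260, and the replicate block 792 and 611, and leaving out 1 array gave 451 to 824 and 80 to 691. Of 753 upstream regions higher and 220 lower, the value table gave 440 and 45, quantile normalization 486 and 326, the replicate block 915 and 378, the block with the A+T trend removed 888 and 339, and leaving out 1 array 555 to 933 and 53 to 387. Signs reversed at eng1 in the value table (0.32), without dim probes (0.041), with normexp (0.047), with the A+T trend removed, with or without the block (0.062), and without cdc25-22 replicate 3 (0.24, where leaving out 1 array gave -0.23 to 0.24). At psu1 they reversed in the value table (0.030), with normexp (0.10), with the A+T trend removed, with or without the block (0.12), and without rad3-deleted replicate 2 (0.059, where leaving out 1 array gave -0.11 to 0.059). At ecm33 a common MAD gave -0.28 and quantile normalization -0.34, and upstream these gave 0.092 and 0.0015 at adg3 and 0.10 and 0.0084 at psu1. The cause of these changes was not tested. The replicate block changed no other call of a placed gene or of the region before it. The region before exg1 has 4 probes and gave no value with at least 5.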
